A study of Mus musculus with 6 samples.

Results

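The genes described here encode the zinc metalloproteinases of the MMP, ADAM and ADAMTS families and their natural inhibitors, the TIMPs, measured in CD4+ dendritic cells (DC) of the mouse spleen with and without the transcription factor Runx3. Members were chosen with earlier results of these data known, and 1 gene of the family is not reported here. They were taken by name from probe sets of the array annotated to exactly 1 gene symbol. That symbol had to start with Mmp, Adam or Timp followed by a digit, or with Adamts. This gave 82 genes on 107 probe sets, out of 19938 genes with such a probe set. Each gene was represented by the probe set with the highest mean over all arrays, and it counted as measured when at least 1 array reached a log2 value of 6.5, the background level in the methods of the study. By that criterion 19 of the 82 genes were measured and 63 lay below background in every array.

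RNA came from 3 Runx3-/- male mice and 3 wild type (WT) male littermates, all aged 6 weeks, and each mouse contributed 1 array. The arrays of each genotype are numbered 1 to 3, and arrays with the same number were taken as a litter. Runx3-/- is a germline loss of the gene, present in every cell of the animal and not only in DC. Cells positive for CD11c and MHCII were sorted from the spleen and separated by CD4 against CD8. Esam is mentioned in the sorting label without a gate. Values are log2 intensities that the authors normalised by robust multichip averaging, and all changes below are log2 differences of Runx3-/- minus WT.

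MMPs cut collagens, elastin and other components of the extracellular matrix, and they are made as inactive precursors. ADAMs are membrane proteins, many of which release the outer part of other membrane proteins from the cell surface, a process called shedding. ADAMTS proteins are secreted relatives that process procollagen and proteoglycans, and TIMPs block the active site of these enzymes by binding to it. Migrating DC use such enzymes to pass basement membranes. The arrays measured RNA and not the activity of the enzymes, and in sorted bulk samples fewer cells of a type and less RNA per cell cannot be told apart.

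The targeted gene was checked first. Runx3 (probe set 10509030) had log2 values of 9.16, 9.30 and 9.16 in Runx3-/- DC, against 11.24, 11.22 and 11.11 in WT DC. The log2 change was -1.98, SE 0.08 (limma, adjusted p = 0.0027). Permuting the genotypes in an exact two-sided test gave p = 0.1, below which 3 against 3 arrays cannot go. The adjusted p was 0.061 with litter as a replicate block and 0.054 without WT 1. The DC markers Itgax, H2-Aa, Flt3 and Zbtb46 were above background in all arrays, and 10 of 10 listed DC markers were measured. Of that list Irf4, a factor of CD4+ DC, was lower (change -0.62, SE 0.10, limma, adjusted p = 0.043). Itgax, Flt3 and Zbtb46 also lay wholly lower in Runx3-/- arrays, with changes of -0.11, -0.28 and -0.35, and Itgam and Sirpa wholly higher, with 0.47 and 0.16, without passing. Array medians lay between 6.57 and 6.65. Adjusted p values are Benjamini-Hochberg values over all 19149 tested probe sets, and 0.05 was the threshold. Without WT 1 and with the replicate block, 0 of these probe sets passed, against 298 in the fit with genotype alone, so under these 2 settings no gene of the array was called. Of the 19 measured genes described below, 9 without WT 1 and 10 with the block had an unadjusted p of at most 0.05 (limma).

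Loss of Runx3 was accompanied by higher RNA of the inhibitor Timp2 and of the membrane-anchored collagenase Mmp14, and by lower RNA of the leukocyte sheddase Adam8. These were the 3 genes of the 19 that passed the adjusted threshold, 2 higher and 1 lower. Among all 9922 tested genes 1.36% passed as higher and 0.907% as lower. The study's methods set the thresholds at an unadjusted p of at most 0.05 and a change of at least 1.5-fold. By these, 3 genes were higher (Timp2, Mmp14 and Adam11) and 3 were lower (Adam8, Mmp12 and Adam19). At these thresholds 3.05% of all tested genes were higher and 1.62% lower. The Runx3-/- arrays lay wholly above the WT arrays for 7 of the 19 genes and wholly below them for 3, while 9.86% of all tested genes lay wholly above and 18.6% wholly below. The median change of the 19 genes was -0.02, with 9 positive and 10 negative. Over all 9922 tested genes the median was -0.03, with 4099 positive and 5823 negative. The median size of the change without its sign was 0.38 for the 19 genes and 0.11 for all tested genes. Of the 19 genes, 3 (Mmp14, Mmp23 and Mmp9) reached background in Runx3-/- arrays alone, and 0 in WT arrays alone. Mmp14 and Mmp23 are among the 7 genes that lay wholly higher, and Mmp14 is among those called higher. The counts of higher genes are thus partly set by the criterion for being measured.

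**Figure D1:**
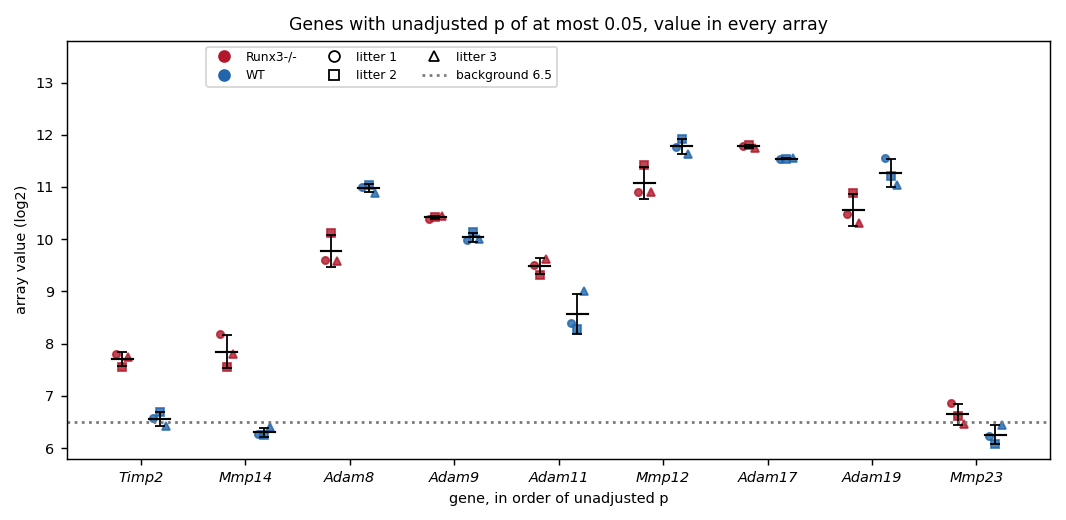
Log2 values (vertical axis) in each array of the 9 genes with an unadjusted p of at most 0.05, Runx3-/- in red at the left and WT in blue at the right of each gene. Circles, squares and triangles are the arrays numbered 1, 2 and 3 of each genotype, and arrays of the same number were taken as a litter. Black bars give mean and SD (n = 3 per genotype), and the dotted line marks background at 6.5. For Timp2, Mmp14 and Adam11 the Runx3-/- points lie above all WT points, and for Adam8, Mmp12 and Adam19 below them.

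Timp2 encodes an inhibitor that blocks MMPs and that also, together with Mmp14, takes part in the activation of the gelatinase Mmp2 at the cell surface. Its log2 values (probe set 10393559) were 7.80, 7.56 and 7.75 in Runx3-/- DC, against 6.58, 6.69 and 6.41 in WT DC. The genotypes did not overlap, and 2 of the 3 WT arrays were above background. The mean was 7.70 ± 0.13 in Runx3-/- DC and 6.56 ± 0.14 in WT DC (SD, n = 3 each). Timp2 was 2.21-fold higher, with a change of 1.14, an SE of 0.11 and a 95% interval of 0.89 to 1.40 (limma, adjusted p = 0.014). By p it stood at rank 33 of the 9922 tested genes. The adjusted p was 0.081 with the replicate block, 0.084 without WT 1, 0.065 without Runx3-/- 1 and 0.061 without Runx3-/- 3, and it lay between 0.012 and 0.11 across 14 alternatives. In the RefSeq annotation Timp2 overlaps the gene Cep295nl. The other TIMP genes lay below background in every array, with highest values of 5.99 for Timp4, 5.54 for Timp3 and 5.09 for Timp1.

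Mmp14 encodes the membrane-type enzyme MT1-MMP, which cuts fibrillar collagen around migrating cells. Probe set 10415052 gave log2 values of 8.18, 7.56 and 7.80 in Runx3-/- DC, against 6.26, 6.24 and 6.40 in WT DC. All 3 Runx3-/- arrays were above background and all 3 WT arrays below it, so that the gene counted as measured through the Runx3-/- arrays alone. The mean was 7.85 ± 0.32 in Runx3-/- DC and 6.30 ± 0.09 in WT DC (SD, n = 3 each). With the WT arrays set to background, Mmp14 was at least 2.54-fold higher. The fit on the values as deposited gave 1.55 with an SE of 0.16 (limma, adjusted p = 0.019), which rests on WT values below background and is no measured fold. The adjusted p was 0.079 with the replicate block, 0.11, 0.054 and 0.057 without WT 1, 2 and 3, 0.072 without Runx3-/- 3, and it lay between 0.014 and 0.12 across 14 alternatives. The other membrane-type genes of the list, Mmp16, Mmp17, Mmp24 and Mmp25, lay below background in every array, with a highest value of 6.18 for Mmp25. Mmp2, the enzyme that Mmp14 and Timp2 activate together, was also below background in every array, with a highest value of 5.69.

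Adam8 encodes an ADAM of myeloid cells that sheds adhesion molecules. On probe set 10568873 the log2 values were 9.60, 10.12 and 9.59 in Runx3-/- DC, against 11.00, 11.04 and 10.89 in WT DC. All 6 arrays were well above background, and the genotypes did not overlap. The mean was 9.77 ± 0.31 in Runx3-/- DC and 10.98 ± 0.08 in WT DC (SD, n = 3 each). Adam8 was 2.31-fold lower, with a change of -1.21, an SE of 0.16 and a 95% interval of -1.59 to -0.83 (limma, adjusted p = 0.029), at rank 108 of all tested genes. The array Runx3-/- 2 stood nearest to the WT values, and without it the adjusted p was 0.014. The adjusted p was 0.081 with the replicate block, 0.15 without WT 1, 0.0797 without WT 2, 0.094 without WT 3, 0.11 without Runx3-/- 1 and 0.089 without Runx3-/- 3, and it lay between 0.014 and 0.15 across 14 alternatives.

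The 250 bases upstream of the annotated starts of these 3 genes are shown because RUNX factors bind a short DNA motif and the genes changed in opposite directions. They are taken from RefSeq on mouse build GRCm38.p6, 5′ to 3′ on the strand of the gene, with matches to TGTGGT or TGCGGT on either strand in capitals. The regions are chr14:54431348-54431597 on the plus strand for Mmp14, chr11:118355412-118355661 on the minus strand for Timp2 and chr7:139992563-139992812 on the minus strand for Adam8.
Mmp14: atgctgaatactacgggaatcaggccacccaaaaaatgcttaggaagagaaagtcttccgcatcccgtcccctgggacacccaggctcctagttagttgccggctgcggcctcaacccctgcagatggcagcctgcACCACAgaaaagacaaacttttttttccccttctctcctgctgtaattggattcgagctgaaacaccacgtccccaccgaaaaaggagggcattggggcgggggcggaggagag
Timp2: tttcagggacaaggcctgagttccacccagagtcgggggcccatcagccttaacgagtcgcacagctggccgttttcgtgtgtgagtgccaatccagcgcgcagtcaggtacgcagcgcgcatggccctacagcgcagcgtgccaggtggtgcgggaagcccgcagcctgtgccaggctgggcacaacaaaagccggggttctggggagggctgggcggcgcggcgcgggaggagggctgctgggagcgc
Adam8: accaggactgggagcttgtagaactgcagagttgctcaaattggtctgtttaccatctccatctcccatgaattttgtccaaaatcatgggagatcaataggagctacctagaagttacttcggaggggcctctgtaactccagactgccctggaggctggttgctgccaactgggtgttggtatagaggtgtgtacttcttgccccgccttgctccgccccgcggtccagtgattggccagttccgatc
The upstream region of Mmp14 held 1 match, ACCACA, the reverse complement of TGTGGT, beginning 114 bases before the start, and those of Timp2 and Adam8 held 0. Of the 19 measured genes 13 had a promoter in the table, and 4 of these (30.8%) had a match in at least 1 promoter window of 300 bases, which spans 250 bases before to 50 after a start. The same was true of 25.03% of all genes in the table. Counted by promoter, 4 of 17 windows of the measured genes (23.5%) and 22.4% of all 32851 windows held a match. A match is a string of letters and not a measured binding site.

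Of the secreted MMPs, 3 of 17 genes were measured, and 0 passed the adjusted threshold (limma, with 2 at an unadjusted p of at most 0.05). Mmp12 encodes macrophage elastase, which degrades elastin. Its log2 values (probe set 10583056) were 10.91, 11.43 and 10.91 in Runx3-/- DC, against 11.77, 11.92 and 11.63 in WT DC. The genotypes did not overlap, and Runx3-/- 2 again lay nearest to WT. The change was -0.70 (SE 0.17), or 1.62-fold lower, which passed the study's thresholds (unadjusted p = 0.0051) but not the adjusted one (limma, adjusted p = 0.12). Without Runx3-/- 2 the change was -0.87 and the adjusted p was 0.046, and the adjusted p ranged from 0.046 to 0.33 over 14 alternatives. Mmp12 belongs to a run of 10 neighbouring Mmp genes in the RefSeq gene order, with Mmp13, Mmp1b, Mmp3, Mmp1a, Mmp10, Mmp8, Mmp27, Mmp20 and Mmp7. The 9 others lay below background in every array, with highest values from 4.96 to 5.58, so Mmp12 was the single measured gene of that run.

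Mmp9 encodes gelatinase B, an enzyme abundant in neutrophil granules and also made by DC and macrophages. The log2 values of probe set 10478633 were 5.66, 7.71 and 6.34 in Runx3-/- DC, against 5.66, 5.68 and 6.24 in WT DC. It was above background in Runx3-/- 2 alone and the genotypes overlapped. With the WT arrays set to background, the Runx3-/- mean lay 1.05-fold above them, a ratio that carries no sampling error. The fit gave 0.71 (SE 0.51, limma, adjusted p = 0.56), and 0.14 without Runx3-/- 2, both on values mostly below background. The neutrophil markers S100a8, S100a9, Ly6g, Mpo and Elane were below background in every array, and 2 of 10 neutrophil markers were measured. Of these, Ngp was above background in Runx3-/- 1 alone, and Csf3r, the receptor of the granulocyte growth factor, was at 9.46, 9.14 and 8.83 in Runx3-/- DC, against 8.14, 8.57 and 7.53 in WT DC. The summed linear intensities of the 10 neutrophil markers were 798 to 1175 in Runx3-/- arrays and 476 to 709 in WT arrays, without overlap. As 8 of the 10 were below background in every array, the sums rest largely on Csf3r and show no rise of the list as a whole. The part of neutrophils in the Mmp9 value was not tested. Mmp23 encodes a small MMP that is made as a membrane protein and released, and it overlaps the gene Mib2 in the annotation. Its values were 6.85, 6.62 and 6.46 in Runx3-/- DC, against 6.24, 6.08 and 6.45 in WT DC. They did not overlap, but the values of litter 3 differed by 0.01. All WT arrays were below background, and Mmp23 was at least 1.10-fold higher, with a change of 0.39 and an SE of 0.14 (unadjusted p = 0.030, limma, adjusted p = 0.26). At the edge of detection, Mmp23 and Adamts9 were just inside the criterion with highest values of 6.85 and 6.87, and Adamtsl4 just outside it with 6.32.

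**Figure D2:**
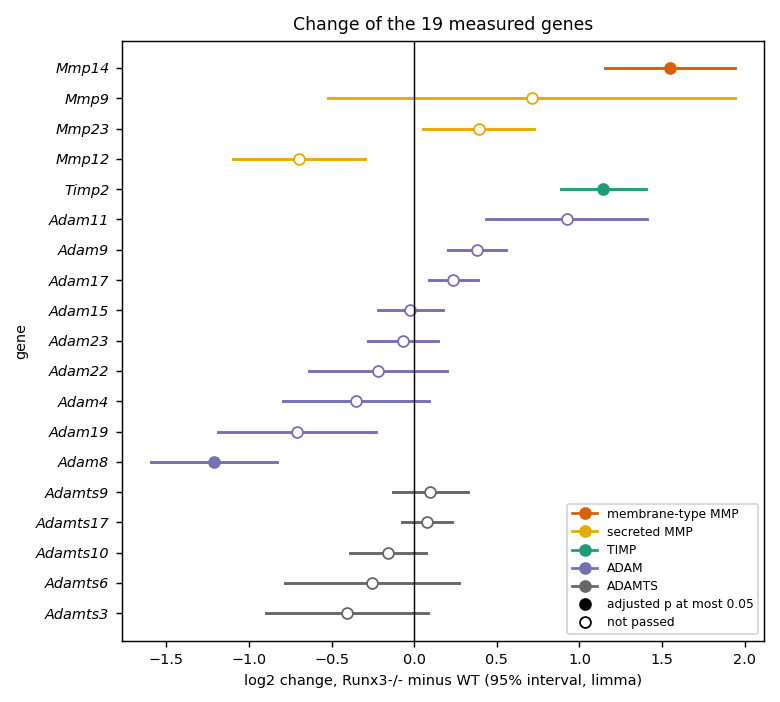
Log2 change of Runx3-/- minus WT with its 95% interval (limma) for the 19 measured genes, grouped by family, of which Mmp14, Mmp9 and Mmp23 had WT arrays below background alone. Filled points passed an adjusted p of 0.05 and open points did not; the intervals of Mmp14, Timp2 and Adam8 lie farthest from 0, and Mmp9 has the widest interval, from -0.52 to 1.94.

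The ADAM genes moved in both directions. Of 33 genes 9 were measured, 3 with a positive and 6 with a negative change, and beside Adam8 none passed the adjusted threshold. Adam17 encodes the sheddase of TNF and of many receptors, among them Mertk and the TNF receptors. Adam17 RNA (probe set 10399605) was at log2 values of 11.78, 11.81 and 11.75 in Runx3-/- DC, against 11.54, 11.53 and 11.56 in WT DC. The genotypes lay apart with a small spread, and the difference was 1.18-fold, with a change of 0.24 and an SE of 0.06 (unadjusted p = 0.0078, limma, adjusted p = 0.14). Across 14 alternatives its adjusted p lay between 0.054 and 0.42. Adam9 encodes another broadly expressed sheddase. On probe set 10577757 the mean was 10.42 ± 0.03 in Runx3-/- DC and 10.04 ± 0.08 in WT DC (SD, n = 3 each), and the arrays of the genotypes did not overlap. The change was 0.38 with an SE of 0.07, a difference of 1.30-fold (unadjusted p = 0.0016, limma, adjusted p = 0.071), and the adjusted p was 0.049 when the prior variance of limma was allowed to follow intensity. Both genes thus lay past an unadjusted p of 0.05 but under a change of 1.5-fold.

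Adam19, also called meltrin beta, encodes an ADAM that sheds neuregulins. Its log2 values (probe set 10375402) were 10.48, 10.89 and 10.30 in Runx3-/- DC, against 11.56, 11.20 and 11.03 in WT DC. The genotypes did not overlap, with Runx3-/- 2 and WT 3 differing by the least of all pairs. The change was -0.71 with an SE of 0.20, or 1.64-fold lower, past the study's thresholds (unadjusted p = 0.010) but not the adjusted one (limma, adjusted p = 0.16). Across 14 alternatives its adjusted p lay between 0.097 and 0.41. Adam15, which carries an integrin-binding motif, showed no detectable difference. Its change was -0.02 with a 95% interval of -0.22 to 0.17 (adjusted p = 0.92), and its sign was positive under quantile normalization and under median centring. Adam4, a gene of the testis-expressed ADAM group that overlaps Cox16 in the annotation, had a change of -0.35 with an SE of 0.18 (unadjusted p = 0.098, adjusted p = 0.41) and overlapping arrays. It differed by -0.30, -0.41 and -0.35 within litters 1, 2 and 3, and with the replicate block the unadjusted p was 0.0053 and the adjusted p 0.13.

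Adam11, Adam22 and Adam23 form a subgroup that lacks protease activity and is known from neurons, where Adam22 and Adam23 are receptors of LGI proteins. Adam11 had log2 values (probe set 10381619) of 9.51, 9.32 and 9.62 in Runx3-/- DC, against 8.40, 8.28 and 9.0004 in WT DC. WT 3 stood above the other WT arrays, and the genotypes did not overlap. Adam11 was 1.89-fold higher, with a change of 0.92 and an SE of 0.20, past the study's thresholds (unadjusted p = 0.0033) but not the adjusted one (limma, adjusted p = 0.098). Without WT 3 the change was 1.14 and the adjusted p was 0.045, and the adjusted p ranged from 0.045 to 0.31 over 14 alternatives. Adam23 was at 12.44, 12.71 and 12.60 in Runx3-/- DC, against 12.66, 12.63 and 12.65 in WT DC. Its arrays overlapped, with a change of -0.07 and a 95% interval of -0.28 to 0.14 (adjusted p = 0.76), and that interval excludes a change of 1.5-fold. Adam22 was at 9.83, 10.12 and 10.34 in Runx3-/- DC, against 10.17, 10.19 and 10.59 in WT DC. The genotypes overlapped, and the change was -0.22 with an SE of 0.17 (adjusted p = 0.60). Adam11 was thus the single gene of this subgroup past the study's thresholds, and whether its change differs from those of Adam22 and Adam23 was not tested.

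No ADAMTS gene was called. Of 18 genes 5 were measured, and 0 of them had an adjusted p or an unadjusted p of at most 0.05 with genotype alone (limma). The intervals of Adamts3, from -0.89 to 0.08, and of Adamts6, from -0.78 to 0.27, reach past a fall of 1.5-fold. Adamts3, a procollagen-processing enzyme, had a change of -0.41 with an SE of 0.20 (adjusted p = 0.39). It has 16 probe sets, of which 3 others were tested, with changes of -0.38, -0.03 and -0.31, so its probe sets differed in size. The change was -0.16 (SE 0.10) for Adamts10, which binds fibrillin microfibrils, and -0.26 (SE 0.22) for Adamts6, whose unadjusted p was 0.036 with the replicate block (adjusted p = 0.25). It was 0.10 (SE 0.09) for Adamts9, which cuts the proteoglycan versican. Adamts17 had a change of 0.08 (SE 0.06) with arrays that did not overlap, and its other tested probe set had a change of 0.09. The ADAMTS-like genes, which resemble ADAMTS proteins but have no protease domain, were below background in all 5 cases.

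**Figure D3:**
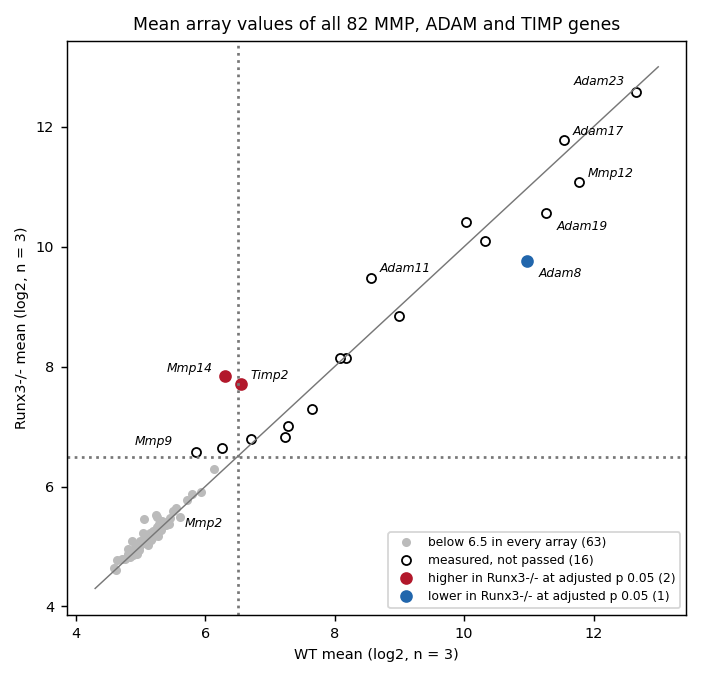
Mean log2 value in Runx3-/- (vertical axis, n = 3) against WT (horizontal axis, n = 3) for all 82 genes. Dotted lines mark the background of 6.5 and the diagonal marks equal values; grey points are the 63 genes below background in every array, and Mmp14 lies above background in Runx3-/- DC but not in WT DC.

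Apart from Mmp14, Mmp9 and Mmp23, which reached background in Runx3-/- arrays alone, no measured gene lay below background in all arrays of 1 genotype, and 15 of the 19 were above background in all 6 arrays. The 63 genes below background had highest values of at most 6.32. They included 14 secreted MMPs, 24 ADAMs and 13 ADAMTS genes, and a level below background sets no limit on RNA in a minority of the cells. After Adamtsl4 and Mmp25 the highest values among them were 5.84 for Adamtsl1 and 5.83 for Adam33. Adam28, known from lymphocytes, had a highest value of 5.51.

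Arrays of the same number, taken as littermates, were also set against each other for the 6 genes past the study's thresholds. Their genotypes do not overlap, so the sign within a litter is fixed and the size of the difference alone can vary. Mmp14 differed by 1.92, 1.32 and 1.40 between the Runx3-/- and the WT animal of litters 1, 2 and 3, and Timp2 by 1.23, 0.87 and 1.34. Adam8 differed by -1.41, -0.92 and -1.31, and Mmp12 by -0.87, -0.49 and -0.73. Litter 2 thus had the difference nearest to 0 for all 4 of these genes. Adam19 differed by -1.09, -0.31 and -0.73, again least in litter 2, and Adam11 by 1.10, 1.04 and 0.62, least in litter 3. Litter 2 gave the smallest difference for 5 of the 6 genes, and it did so for 285 of 464 genes past these thresholds on the whole array (61.4%).

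**Figure D4:**
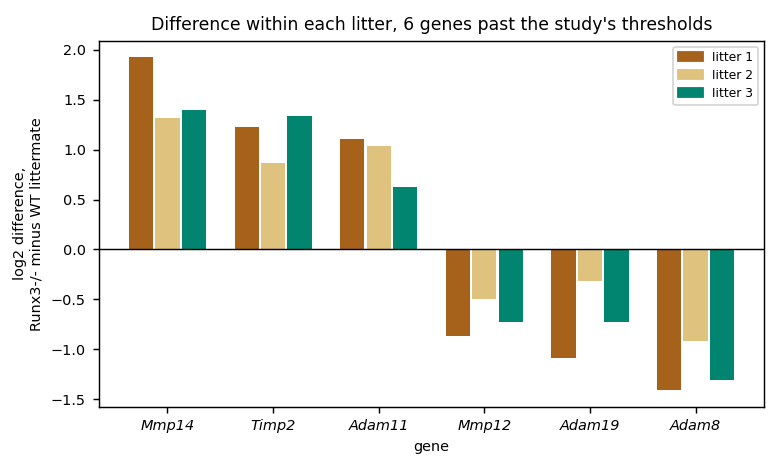
Difference of the log2 values of the Runx3-/- and the WT array of the same number, taken as littermates, for the 6 genes past the study's thresholds. Litters 1 to 3 are separate bars. The sign follows from genotypes that do not overlap, and the differences of litter 2 lie nearest to 0 for 5 of the 6 genes.

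Other genes of the pathway were read from lists of activators, inhibitors and substrates. In the plasminogen system, a protease cascade on the cell surface that activates several MMPs, 6 of 11 genes were measured, and 0 passed the adjusted threshold (limma, with 1 at an unadjusted p of at most 0.05) or the study's thresholds, with a median change of 0.01. The urokinase receptor Plaur had a change of 0.49 (SE 0.20, unadjusted p = 0.0496, adjusted p = 0.31) and the inhibitor Serpinb2 of -0.54 (SE 0.27, adjusted p = 0.40). Among convertases and sheddase cofactors 9 of 15 were measured and 0 passed either threshold (limma, with 0 at an unadjusted p of at most 0.05), with a median of 0.09. Furin, the convertase that cuts the propeptide of Mmp14, had a change of -0.15 (SE 0.13), and Rhbdf2, which carries Adam17 to the cell surface, of 0.24 (SE 0.11). Of 9 other listed inhibitors 8 were below background in every array, among them the membrane-anchored MMP inhibitor Reck and the broad protease inhibitor A2m. The one measured was Cst3, cystatin C, which inhibits cysteine proteases and not metalloproteinases, with a change of -0.00 (SE 0.07).

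Calls were also made among proteins known to be shed from the cell surface. Of 29 listed genes 23 were measured, 17 with a positive and 6 with a negative change, a median of 0.17, 3 higher and 0 lower past the adjusted threshold. Of all 9922 tested genes 4099 had a positive change, and 1.36% passed as higher and 0.907% as lower. Mertk, a receptor kinase for apoptotic cells that Adam17 sheds, was at 9.48, 9.50 and 9.32 in Runx3-/- DC, against 7.49, 7.96 and 7.00 in WT DC, with a change of 1.95 (SE 0.23, limma, adjusted p = 0.024). Lrp1, an endocytic receptor that takes up complexes of proteases and inhibitors and is cut by Mmp14, was at 10.41, 10.62 and 10.26 in Runx3-/- DC, against 9.17, 9.17 and 8.73 in WT DC, with a change of 1.41 (SE 0.15, adjusted p = 0.021). Both genes were above background in all arrays and did not overlap between genotypes. Axl, a relative of Mertk, had a change of 1.30 (SE 0.17, adjusted p = 0.029). At the study's thresholds Vcam1 and Hbegf were also higher, the second with 1 Runx3-/- array above background, and the decoy receptor Il1r2, at -1.29 (SE 0.37), was lower. Tnf, whose membrane form Adam17 sheds, had a change of -0.52 (SE 0.11, adjusted p = 0.089) with arrays that did not overlap. Of the 29 genes 4 are also red pulp macrophage markers (Mertk, Axl, Cd163 and Vcam1).

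Matrix genes were mostly below background. Of 24 listed matrix substrates 4 were measured and 19 lay below background in every array, among them the fibronectin gene Fn1 and the collagen IV genes Col4a1 and Col4a2. All 4 changes were positive, with a median of 0.53, and 2 passed the adjusted threshold as higher, beside 1.36% of all tested genes. Sparc, a collagen-binding protein, was at 7.74, 7.47 and 7.37 in Runx3-/- DC, against 6.20, 6.29 and 6.54 in WT DC, with 1 WT array above background (change 1.18, SE 0.14, limma, adjusted p = 0.022). Bgn, the proteoglycan biglycan, was at 7.27, 7.02 and 7.01 in Runx3-/- DC, against 6.44, 6.53 and 6.499 in WT DC, and likewise 1 WT array was above background (change 0.61, SE 0.09, adjusted p = 0.042). Both thus rested on WT values at or near background. Among 9 partners of Timp2 and Mmp14 at the cell surface 7 were measured, all with a positive change and a median of 0.27. Of all 9922 tested genes 4099 had a positive change. For 3 of the 7 the Runx3-/- arrays lay wholly above WT, beside 9.86% of all tested genes. Cd44, Itgav and Cd63 had changes of 0.03, 0.13 and 0.15 with overlapping arrays. Of the 7 measured partners Lrp1 passed the adjusted threshold (limma). The growth factor receptor Igf1r passed the study's thresholds alone (change 1.18, SE 0.28, limma, adjusted p = 0.11). The lists share Lrp1 and Cd44.

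The calls of the 5 listed genes did not hold under every setting. With the replicate block the adjusted p was 0.074 for Mertk, 0.070 for Lrp1, 0.074 for Axl, 0.099 for Sparc and 0.12 for Bgn. With the one-way analysis of variance of the methods it was 0.13 for Mertk, 0.126 for Lrp1, 0.14 for Axl, 0.126 for Sparc and 0.13 for Bgn, and with the intensity trend it was 0.063 for Bgn. Without WT 1, without Runx3-/- 1 and without Runx3-/- 3 none of them passed, with adjusted p values of 0.062 to 0.19. In these 3 fits 0, 40 and 1 of the 19149 probe sets of the array passed, against 298 with all arrays. Without Runx3-/- 2 the adjusted p was 0.059 for Mertk, 0.066 for Axl, 0.0505 for Sparc and 0.068 for Bgn. It was 0.065 for Sparc and 0.096 for Bgn without WT 2, and 0.055 for Axl and 0.13 for Bgn without WT 3. Lrp1 passed without Runx3-/- 2, WT 2 and WT 3, and Bgn passed in none of the 6 fits without an array.

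**Figure D5:**
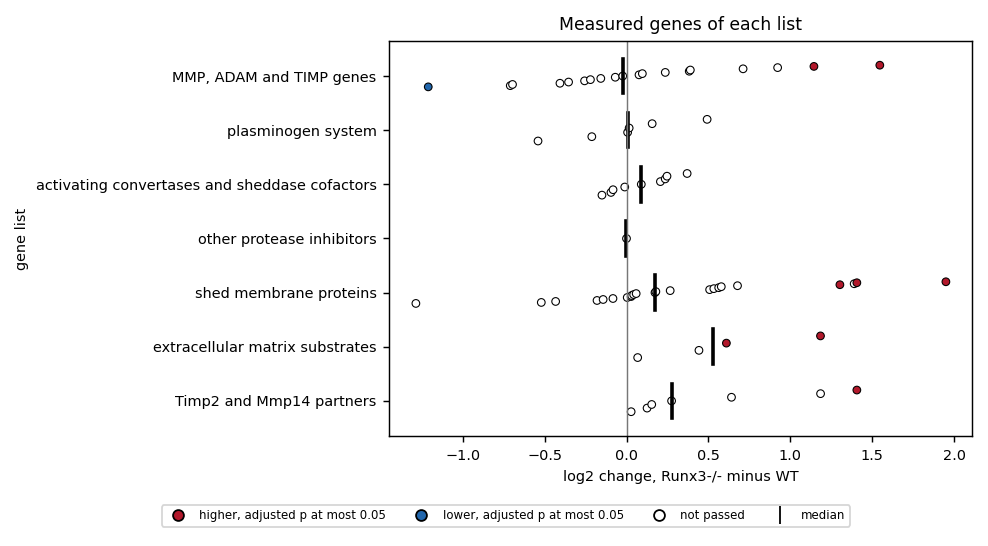
Log2 change of Runx3-/- minus WT for each measured gene of the 19 MMP, ADAM and TIMP genes and of 6 lists of pathway genes, with the median of each list as a vertical bar. Red points were higher and blue points lower at an adjusted p of at most 0.05; the shed membrane proteins hold 3 red points and the matrix substrates 2.

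Several marker lists of other spleen cells moved with genotype as well. Of 12 markers of red pulp macrophages, which clear aged red cells, 11 were measured, all with a positive change and a median of 1.31. Past the adjusted threshold 7 were higher (limma), beside 1.36% of all tested genes. The sum of the linear intensities of these markers was 15692 to 18598 in Runx3-/- arrays and 8935 to 11820 in WT arrays. Within the list Cd163 was below background in every array and Adgre1, a surface receptor of these macrophages, had a change of 0.01. Of 9 monocyte markers 5 were measured, all with a positive change. Past the adjusted threshold 1 was higher (limma), Cx3cr1, beside 1.36% of all tested genes. The sum of the list was 14951 to 16200 in Runx3-/- arrays and 9306 to 11434 in WT arrays. Lyz2, the measured monocyte marker with the highest value in every array, weighed most in that sum, with a change of 0.50 (SE 0.09, limma, adjusted p = 0.060). The part of these cell types in the values of Mmp14, Timp2, Adam8, Adam11, Adam19, Mmp12, Sparc and Bgn was not tested. Of 10 stromal markers 6 were below background in every array, Pdgfra, Dcn and Lum among them, and 0 passed (limma, with 1 at an unadjusted p of at most 0.05). That marker was Cxcl13, 1.57-fold higher, with 8.98, 8.61 and 8.84 in Runx3-/- DC, against 8.05, 7.74 and 8.69 in WT DC. Col1a1 and Pdgfrb, also measured, differed by 0.07 and 0.10, and the arrays of all 3 genes overlapped. The summed stromal intensities were 976 to 1062 in Runx3-/- arrays and 773 to 934 in WT arrays. Their separation rests largely on Cxcl13 and shows no rise of the stromal list as a whole. Of 6 endothelial markers Cdh5 was at least 1.30-fold higher (limma, adjusted p = 0.036), with no WT array above background, and Kdr was past the study's thresholds alone (change 1.40, SE 0.36, adjusted p = 0.14). Pecam1 and Stab2 had changes of -0.13 and 0.12, Tek and Emcn were below background, and the endothelial sums overlapped, with 1746 to 1851 in Runx3-/- arrays and 1577 to 1877 in WT arrays. Plasmacytoid DC markers had a sum of 1387, 1720 and 3594 in Runx3-/- 1, 2 and 3, against 1242 to 1344 in WT arrays, so Runx3-/- 3 stood highest. Without Runx3-/- 3 the changes were 1.57 for Mmp14, 1.12 for Timp2 and -1.12 for Adam8 (limma, adjusted p = 0.072, 0.061 and 0.089). In that fit 1 probe set of the whole array passed. The part of plasmacytoid DC in the values of these genes was not tested. All 5 NK cell markers were below background in every array. Their sums still did not overlap, with 193 to 197 in Runx3-/- arrays and 176 to 182 in WT arrays. T cell sums were 223 to 335 against 204 to 206, with 1 of 7 markers measured. Sums can thus separate for lists that are not measured. B cell sums overlapped, with 2087 to 2286 against 1688 to 2232, and 0 of 5 measured markers passed (limma).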

How the data were processed

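Gene expression in sorted CD4+ splenic DC was measured on 6 Affymetrix arrays, 3 Runx3-/- and 3 WT. The authors imported the raw files into Partek Genomics Suite and summarised probe sets by robust multichip averaging (RMA, GC-corrected). Deposited values are log2 intensities. RMA brings the arrays towards a common distribution, which can hide a shift common to most genes, although the deposited medians still differed slightly, and differences close to background are understated. The submitters' processing notes name build mm9. Versions of the authors' software are not stated in what was used here. Identifiers in the table belong to a gene-level array, while an exon array is named in the methods. The labels and the methods name different RNA kits.

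Deposited values were used without further normalization. The 19149 probe sets that reached 6.5 (log2) in 1 or more of the 6 arrays were tested for genotype alone, after the one-way analysis of variance of the methods, by lmFit and eBayes of limma 3.58.1 in R 4.3.3. Tests were two-sided, and the Benjamini-Hochberg adjustment ran over all of them. The fit was tested on simulated data first. Gene symbols came from the platform annotation, and all 82 genes were found in the RefSeq table through their Entrez numbers. The 2 probe sets with several symbols were not used, and 1 gene of the family is not reported here. Folds are ratios of geometric means. Where all arrays of a genotype lay below 6.5, the fold was computed against 6.5. It is a lower bound on the ratio of the observed means alone and takes no account of sampling error. Sums of marker intensities add the values of a list's genes on the linear scale. Precision is limited by the number of arrays.

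The labels number the arrays of each genotype, and arrays with the same number were taken as littermates. Deviations from the genotype means correlated at 0.16, 0.10 and 0.25 between littermates, all over 0.1, and at -0.23 to 0.1034 between other pairs, where that of Runx3-/- 2 with WT 1 was above the 0.1023 of litter 2. The pairing rests on the array numbers, so a fit with litter as a replicate block was an alternative. The other alternatives were a one-way analysis of variance, an intensity trend in the prior variance, quantile normalization, median centring, no filter, 6.5 in at least 3 arrays, the mean of a gene's probe sets, and leaving out each array. All measured members were to be named, with those past a threshold given array by array, and of each pathway list up to 4 called genes. Genes named outside this rule were chosen after their values were seen. The members and lists were chosen with earlier results of these data known.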

Additional observations from a re-analysis of the deposited data

How the results depend on the processing

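With the replicate block, in which litter is a term of the fit, 0 genes of the MMP, ADAM and TIMP families were higher and 0 lower at an adjusted p of 0.05 (with 10 at an unadjusted p no higher than 0.05, Adam4 and Adamts6 among them and Mmp23 not), while genotype alone gave 2 and 1. The change of Runx3 was -1.98 with an adjusted p of 0.061. The one-way analysis of variance also gave 0 higher and 0 lower (9 at an unadjusted p of at most 0.05), with 6 probe sets called on the whole array. When 1 array was left out, 0 to 2 genes were higher and 0 to 2 were lower, with 0 to 205 probe sets called on the whole array. The change of Runx3 ranged from -2.03 to -1.96 in these fits and missed the threshold without WT 1 (adjusted p = 0.054). The intensity trend, quantile normalization, median centring, both other filters and the mean of probe sets gave counts within 1.5 times those reported. The counts at the study's thresholds stayed within 1.5 times the reported 3 and 3 in all settings run.

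The median change of the measured genes was near 0 and took either sign. It was 0.028 with quantile normalization, 0.017 with median centring, 0.034 with no filter over 82 genes and -0.069 with 6.5 in at least 3 arrays over 17 genes, and it ranged from -0.067 to 0.024 when 1 array was left out. Adam15 changed sign to 0.028 with quantile normalization and to 0.017 with median centring, and it ranged from -0.088 to 0.024 when 1 array was left out. Adam23 ranged from -0.13 to 0.0028. Beside these, Runx3, the 17 other measured members and Mertk, Lrp1, Axl, Sparc and Bgn kept their direction in the settings run, and other listed genes and markers were not run. Among the measured genes 236 comparisons with an alternative kept direction and side of the threshold, 18 lost the call, 3 gained it and 4 changed sign. Those gained were Adam11 without WT 3, Adam9 with the intensity trend and Mmp12 without Runx3-/- 2. The cause of these shifts was not tested. Mmp9 and Mmp23 had no value with 6.5 in at least 3 arrays, and neither did Adamts3, Adamts9 and Adamts17 with the mean of probe sets. Signal near background limits Mmp14, Mmp9, Mmp23 and Timp2 in WT arrays, and 3 arrays a genotype limit all tests.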
